A study of Mus musculus with 10 samples.

Results

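The regions described here were called as peaks in all 10 ATAC-seq libraries of a mouse liver tumour series. They lie more than 1 kb from both ends of every protein-coding gene. There were 244 of them among the 12266 regions of the union of the 10 peak lists. Rows were merged within each list, the lists were joined on chromosomes 1 to 19 and X, and a region counted as called in a list when it overlapped a row there by at least 1 bp. The members were thus selected on presence in every list and on distance to 21631 protein-coding genes of the RefSeq table (GRCm38.p6, whose coordinates are those of mm10). A further 403 regions called in all 10 lists lay within 1 kb of a gene end and serve here as the comparison set, so that 37.7% of the 647 regions called everywhere were away from gene ends.

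ATAC-seq uses a transposase that inserts sequencing adapters into accessible DNA, so that reads pile up where nucleosomes are absent. Open chromatin away from gene ends usually contains enhancers, which are bound by cell type-specific factors and vary between tissues and states, and insulators bound by CTCF, which vary less. ARID1A is the DNA-binding subunit of the BAF form of the SWI/SNF remodelling complex, which moves nucleosomes and is known above all for keeping enhancers open. Peak lists also contain sites where reads from many genomic copies of a sequence collect on the copies that were assembled. Examples are satellite repeats, ribosomal DNA and nuclear copies of mitochondrial DNA. Which members are such sites was not tested, so a call alone does not show open chromatin.

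All mice were FVB and carried LAP-tta and TRE-MYC, so that a liver-expressed tetracycline transactivator turns on MYC once doxycycline water is removed, and liver tumours were taken at death and frozen. WT tumours (n = 4, about 55 days) were Arid1a fl/fl without Cre. Het tumours (n = 3, about 70 days) were Arid1a fl/+ with Alb-cre, and Homo tumours (n = 3, about 100 days) were Arid1a fl/fl with Alb-cre. The albumin promoter drives this Cre in hepatocytes, and which other cells of a tumour it reached was not examined here. Genotype cannot be told apart from age, nor, against WT, from the presence of Cre. The titles number the libraries without saying that each came from its own mouse, and p-values then measure the spread between libraries.

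The lists held 1748 to 9587 merged regions, and the genome background recovered from them, in tags expected at a position, ranged from 0.46 in Homo 2 to 1.74 in WT 1. By group its mean was highest in WT (1.32 ± 0.331, SD, n = 4), lower in Homo (0.993 ± 0.580, n = 3) and lowest in Het (0.697 ± 0.0451, n = 3). Of 12 hepatocyte genes, 0 to 6 had a called region at a gene end in each library, with 0 in Homo 2, and Cebpa was among them in the other 9 libraries. Alb had one in WT 2 and Homo 3. Of 6 lists of 6 markers each, for cholangiocytes, endothelium, stellate cells, macrophages, lymphocytes with neutrophils, and red cells, Epcam (WT 3 and WT 4), Spi1 (Homo 3) and Nfe2 (WT 1, WT 2 and Homo 3) were called. The listed markers of endothelium, stellate cells and lymphocytes with neutrophils were called in no library. Even the hepatocyte genes reached 6 called only in WT 1, WT 2 and Homo 3. In these bulk samples a smaller share of a cell type, less open chromatin per cell and too few reads cannot be told apart.

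**Figure D1:**
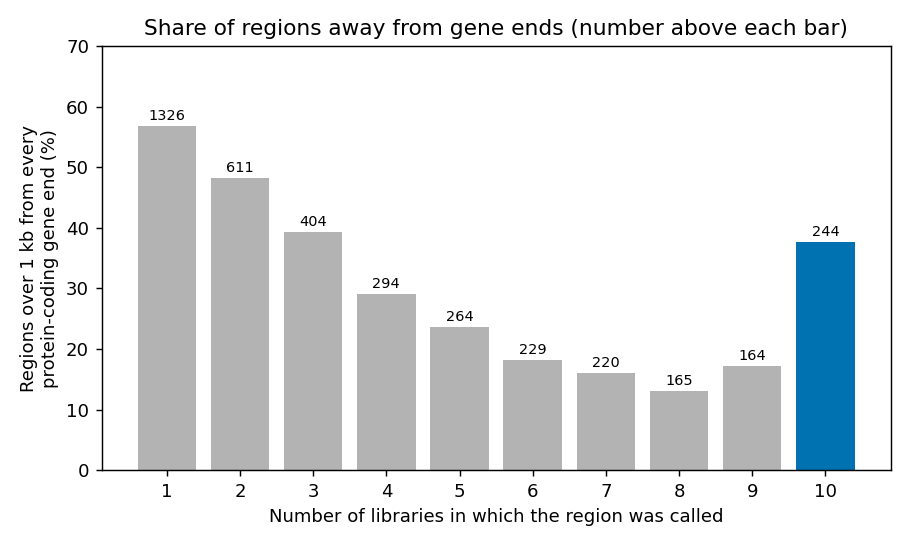
Share of union regions lying over 1 kb from every protein-coding gene end (y axis, percent), by the number of libraries in which the region was called (x axis), with the number of such regions above each bar. The share falls from 56.8% for regions of 1 library to 13.0% for regions of 8 libraries and is 37.7% for regions of all 10.

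The share of regions away from gene ends fell as regions were called in more libraries and was higher again for those called in all of them. It was 56.8% of 2333 regions called in 1 library, 23.6% of 1119 called in 5, 13.0% of 1268 called in 8, 17.2% of 954 called in 9 and 37.7% of 647 called in 10. The 164 regions away from gene ends that missed 1 library had a median summit pileup of 19 tags, against 35.2 tags for the 244 called in all 10 and 20 tags for the 403 regions at gene ends. Homo 2, the library with the lowest background, was the missing library at 92 of the 164, Het 3 at 33 and Homo 1 at 16. WT 2 and WT 4 were missing at none of them. Without Homo 2 the same rule gave 336 members.

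Annotation divided the 244 members into 5 kinds. A transcription start listed by RefSeq for a protein-coding gene overlapped 31 of them, a start inside the gene rather than at its outer end. A further 22 lay at an end or start of a noncoding RNA gene and 10 at an end of a pseudogene. The remaining 181 had no such landmark in these annotations: 61 lay inside a protein-coding gene and 120 between genes. The listed starts did not include chromosome 18, so its 9 members could not be placed at one. The median distance to a protein-coding gene end was 31609 bp over all members, 2889 bp for those at a listed start and 85204 bp for those between genes, and 66 members were over 100 kb away. The region farthest from a gene end was 2137517 bp away, on chromosome 1.

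**Figure D2:**
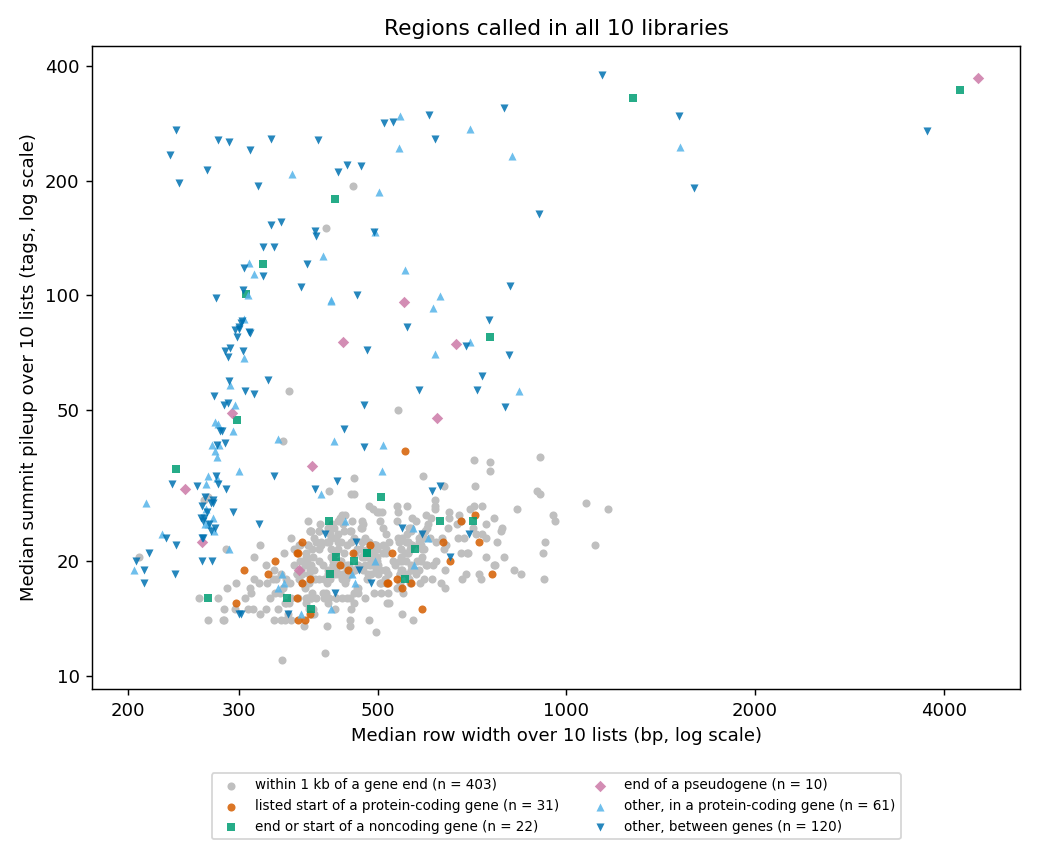
Each point is 1 of the 647 regions called in all 10 libraries, placed by its median row width (x axis, bp, log scale) and its median summit pileup (y axis, tags, log scale) over the 10 lists. Members at listed starts lie among the grey gene-end regions, near 20 tags. Members between genes reach 379.5 tags, and 72 of these 120 are under 350 bp wide.

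Members at listed starts are shown first by sequence, because they are promoters by annotation although the distance rule places them away from gene ends. Their starts lay 1329 bp (Taok2) to 197773 bp (Prkag2) downstream of the outer gene start, with a median of 3710 bp. The median summit of the region was within 250 bp of the listed start at 29 of the 31, at a median distance of 51 bp. The exceptions were Usp34, a ubiquitin protease gene, at 491 bp, and Zfx, an X-linked zinc finger gene, at 843 bp. The bases before the start are printed for the 5 of these genes that the naming rule below picks, and for the 2 starts whose printed bases hold an AP-1 site or an E-box. Each runs 5′ to 3′ on the strand of the gene and ends at the base before the start (RefSeq, GRCm38.p6). Capitals mark matches on either strand to the searched motifs CACGTG (the E-box bound by MYC and MAX), TGANTCA (AP-1), CCGGAAG (ETS factors), GGGCGGG (SP and KLF factors), AAGATGGC (YY1), and to the NRF1 palindrome.
Abhd18, chr3:40894059-40894258, + strand: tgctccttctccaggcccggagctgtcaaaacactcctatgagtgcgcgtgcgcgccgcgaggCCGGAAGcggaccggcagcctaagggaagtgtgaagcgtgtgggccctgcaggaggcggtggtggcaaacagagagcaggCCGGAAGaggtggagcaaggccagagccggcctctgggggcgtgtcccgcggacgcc
Mdm4, chr1:133025417-133025616, - strand: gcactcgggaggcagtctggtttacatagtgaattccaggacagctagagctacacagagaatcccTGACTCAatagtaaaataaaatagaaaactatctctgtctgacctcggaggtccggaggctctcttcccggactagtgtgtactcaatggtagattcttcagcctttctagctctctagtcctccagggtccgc
Cipc, chr12:86947143-86947342, + strand: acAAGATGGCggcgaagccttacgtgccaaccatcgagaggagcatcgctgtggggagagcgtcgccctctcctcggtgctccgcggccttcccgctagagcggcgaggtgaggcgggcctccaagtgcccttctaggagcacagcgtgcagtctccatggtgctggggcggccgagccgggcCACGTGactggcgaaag
Cd47, chr16:49855454-49855653, + strand: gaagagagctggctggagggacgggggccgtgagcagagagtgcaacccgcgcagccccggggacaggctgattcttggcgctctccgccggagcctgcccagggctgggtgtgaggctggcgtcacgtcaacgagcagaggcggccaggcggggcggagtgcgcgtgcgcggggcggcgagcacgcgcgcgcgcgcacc
Sys1, chr2:164460771-164460970, + strand: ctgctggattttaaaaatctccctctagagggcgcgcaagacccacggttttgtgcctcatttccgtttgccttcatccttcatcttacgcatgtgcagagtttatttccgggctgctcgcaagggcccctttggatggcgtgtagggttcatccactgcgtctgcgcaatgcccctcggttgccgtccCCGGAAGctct
Dido1, chr2:180702103-180702302, - strand: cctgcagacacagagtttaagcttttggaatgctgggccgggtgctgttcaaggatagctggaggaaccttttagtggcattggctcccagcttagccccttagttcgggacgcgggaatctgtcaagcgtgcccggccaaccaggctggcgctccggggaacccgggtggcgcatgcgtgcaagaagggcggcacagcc
Cdc42bpb, chr12:111377719-111377918, - strand: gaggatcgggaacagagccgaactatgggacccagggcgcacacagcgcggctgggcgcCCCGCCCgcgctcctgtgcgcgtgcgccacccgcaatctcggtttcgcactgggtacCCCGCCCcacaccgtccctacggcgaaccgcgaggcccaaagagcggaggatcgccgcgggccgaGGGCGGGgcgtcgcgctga

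Over the whole window of 250 bases before to 50 after the start, the 31 starts were rich in G and C, with a median of 69.0% against 56.7% over 21045 listed starts of protein-coding genes. The ratio of observed to expected CpG was above 0.6 at 30 of 31 (96.8%), 95.2% of 330 starts in gene-end regions called everywhere and 48.1% of all listed starts. The start below that ratio was Mdm4, which encodes an inhibitor of p53. The SP and KLF motif was in 18 of 31 windows (58.1%), against 34.2% of all listed starts, and the ETS motif in 7 (22.6% against 11.7%). In the gene-end regions called everywhere these shares were 54.8% and 20.9%. The NRF1 motif was in 3 windows (Kifap3, Rsrc1 and Taok2), which is 9.68%, against 4.24% of starts in those gene-end regions and 1.34% of all listed starts. The YY1 motif was in 2 (Cipc and Zfp341), which is 6.45%, against 8.18% and 3.07%. The E-box CACGTG was in 1 window, that of Cipc, a regulator of the circadian clock protein CLOCK (3.23%, against 9.70% in the gene-end regions and 7.91% of all listed starts), and the AP-1 motif in 1, that of Mdm4 (3.23% against 3.03% and 7.04%). A match describes these letters and does not show binding, and starts on chromosome 18 were not used here.

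In accessibility the 31 listed starts were close to the gene-end regions. Their median summit pileup was 19 tags against 20, their median deposited fold (summit over local background) 7.22 against 7.31, and their median width in a list 457 bp against 470 bp. Library by library, the ratio of median pileups lay between 0.875 and 1, above 1 in 0 of 10, with a mean log2 ratio of −0.08 ± 0.06 (SD, n = 10 libraries). Each library gives this ratio over the same regions, all chosen by being called, so such ratios are descriptions with no test. The range of pileups among the 31 was narrow, 14 to 39 tags. Abhd18, whose start faces the noncoding gene 6430590A07Rik, was the highest of them with a median fold of 11.8. Its pileups were 51, 43, 35 and 51 tags in WT 1 to 4, 43, 27 and 18 in Het 1 to 3, and 24, 15 and 74 in Homo 1 to 3. The groups overlapped, and Homo held both the lowest and the highest library.

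At Mdm4 (chr1:133025090-133025593) the pileups were 25, 20, 17 and 20 tags in WT, 17, 9 and 14 in Het, and 14, 12 and 15 in Homo. At Cipc (chr12:86946893-86947626) they were 45, 42, 24 and 38 in WT, 18, 14 and 14 in Het and 18, 14 and 35 in Homo. At Cd47 (chr16:49855186-49855976), whose product is the surface signal that restrains phagocytosis, they were 27, 20, 16 and 24 in WT, 24, 16 and 15 in Het and 17, 12 and 18 in Homo. WT held the highest pileup at all 3 starts, and the mean background was highest in WT, although Homo 3 was above 3 of the 4 WT libraries. Pileups are therefore not compared between groups, and ranks within each library are used below.

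Among the members at noncoding genes were 3 at microRNA genes, of which 2 cover the microRNA. The other (chr9:3037819-3038293) lies within 1 kb of Mir101c, has a median fold of 3.43 with 179 tags, and belongs to the high-background block at the start of chromosome 9 described below. Mature sequences are printed 5′ to 3′ from RefSeq (GRCm38.p6), with the seed, bases 2 to 8, in capitals, because they identify the gene covered.
let-7i-5p, chr10:122985698-122985719, - strand: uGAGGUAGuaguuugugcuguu
let-7i-3p, chr10:122985642-122985663, - strand: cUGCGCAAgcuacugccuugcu
miR-6236, chr9:110281353-110281371, + strand: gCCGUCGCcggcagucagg
The 3 mature sequences have different seeds. The region at Mirlet7i (chr10:122985634-122986640), a member of the let-7 family of microRNAs that repress growth genes, resembled a promoter. It was 1007 bp wide, its median fold was 7.42, and its pileups were 30, 27, 26 and 29 tags in WT, 18, 15 and 14 in Het and 25, 9 and 27 in Homo, lowest in the library with the lowest background. The region at Mir6236 (chr9:110281152-110281465) was of another kind, 314 bp wide with a median fold of 27.1. Its pileups were 98, 104, 104 and 111 tags in WT, 95, 98 and 96 in Het and 114, 105 and 92 in Homo, and thus nearly equal in all libraries.

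Other noncoding members were at small structural RNA genes and long noncoding RNAs. They included Rnu3b1 and Rnu3b2, which encode the U3 RNA of ribosomal RNA processing (median fold 6.93 and 8.07, both inside Tex14), Rn7s2, a gene for the RNA of the signal recognition particle (8.34), the snRNA genes Gm24830 (6.91) and Gm22317 (4.86), and Lockd, the long noncoding RNA beside the cell cycle inhibitor gene Cdkn1b (6.17). Rn7s2 (chr12:69361162-69361756) had pileups of 43, 29, 31 and 35 tags in WT, 22, 22 and 20 in Het and 16, 12 and 57 in Homo. Its lowest and highest values were both in Homo, in the libraries with the lowest and the second highest background. Over the 22 members of this kind the median fold was 7.17 and the median pileup 25.5 tags. The ratio of their median pileup to that of gene-end regions was 1.11 to 1.32, above 1 in 10 of 10 libraries.

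The 181 members with no landmark differed from promoters in height, width and sharpness. Median pileup was 40.5 tags inside genes and 56.2 between genes, and median fold 14.6 and 12.4. The ratio of median pileup to gene-end regions had a median of 1.95 over libraries for those inside genes, from 1.28 in Homo 3 to 2.82 in Homo 2. Between genes it was 2.90, from 1.83 in Homo 3 to 3.77 in Homo 2. Both ratios were above 1 in 10 of 10 libraries. For the 10 members at pseudogene ends the ratio was 2.34 to 3.09. Over all 244 members it was 1.30 to 2.64.

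Many of these regions were narrow spikes. The median width in a list was under 350 bp for 113 of 244 members (46.3%), 72 of the 120 between genes and 34 of 403 gene-end regions (8.44%), a limit chosen after the values were seen. Of the narrow members 82 had a median fold over 10, against 2 of the narrow gene-end regions. The summit also sat at nearly the same base in every library: the 10 summits fell within 100 bp of each other at 134 of the 181 members with no landmark (74.0%), 4 of the 31 listed starts (12.9%) and 18 of 403 gene-end regions (4.47%). A fold above 20 was reached by 49 members and 2 gene-end regions.

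The highest fold of all was at chr12:3109783-3110197, between genes and nearest to Rab10, 137231 bp away. Its fold was 33.8, 35.0, 36.0 and 34.7 in WT, 36.5, 36.3 and 36.5 in Het and 35.9, 37.1 and 33.6 in Homo, and it ranked first of the 647 regions in all 10 libraries. Its pileup stayed between 253 and 265 tags while the background rose 3.78-fold. Second was a region inside Chl1, a neural cell adhesion gene (chr6:103648987-103649383), with a median fold of 35.1 and 188 to 234 tags. A region near Tra2a (chr6:49236362-49236704) followed with a median fold of 32.4 and summits within 4 bp. The fourth was near G6pd2 (chr5:60042803-60043173), 1765670 bp from it, with a median fold of 32.2. These 4 were the only regions with a median fold, relative to the median of the 647 regions called everywhere in the same library, of at least 4, and all 4 were members. By pileup instead of fold, 63 members and 2 gene-end regions reached 4 times the median of those 647.

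The next 6 by fold were near Mc2r, near Rimbp3, in Gnb1l, near Obi1, near Abcb11 and near Csf2ra, with median folds of 29.8 to 31.0. Abcb11, the bile salt export pump, is the only liver gene among these neighbours, and the region lies 12832 bp from its nearer end. A nearest gene is a position and not a target. Of the 95 genes in 6 lists of liver transcription factors, AP-1 and stress genes, SWI/SNF subunits, MYC and its partners, liver function genes and noncoding RNAs, 94 were in the table, and 1 contained a member or was the gene nearest to one. It was Arid1b, the paralogue of Arid1a: the region (chr17:4907955-4908599) lay 85698 bp from its end, at an end of the long noncoding RNA gene Gm34507, with a median fold of 8.19 and 21 tags.

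A separate set combined very high pileup with a low fold, because the background around it was high too. Local background was over 50 tags at 19 members, whose pileups were 179 to 379.5 tags and whose folds were only 1.81 to 5.98. At the start of the assembled chromosome 9, 3 members (chr9:3000011-3003672) and 8 more (chr9:3014040-3038293) held the lowest fold of all, 1.81 at chr9:3032339-3032878. Their nearest protein-coding gene was Alkbh8. A block of 4 on chromosome 2 (chr2:98662199-98667365, nearest Lrrc4c) reached 379.5 tags. The widest member, 4546 bp at chr1:24611587-24616132, covers the pseudogenes Gm10222 and Gm10925. Its pileups were 378, 381, 381 and 392 tags in WT, 362, 369 and 361 in Het and 351, 344 and 391 in Homo, and its fold 2.2 to 2.3.

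The second widest, 4277 bp at chr17:39843044-39847320, overlaps the ribosomal RNA pseudogene Rn18s-rs5 and lies within 1 kb of an end of the noncoding gene AY036118. It had 342, 349, 348 and 366 tags in WT, 346, 343 and 359 in Het and 370, 335 and 327 in Homo. Its neighbour at chr17:39847485-39848780 overlaps both genes and had a median of 331 tags. Another wide member, at chr14:19415698-19419497, had 232 to 298 tags. Between WT 1 and Homo 2, whose backgrounds differ 3.78-fold, the pileups were 378 and 344 at Gm10222, 342 and 335 at Rn18s-rs5 and 222 and 141 at chr9:3032339-3032878. Members gathered at the first assembled bases of chromosomes: 28 of 244 (11.5%) ended before 3.4 Mb, on 10 chromosomes, against 67 of the 3921 union regions away from gene ends (1.71%) and 0 of the 403 gene-end regions. That limit was chosen after the positions were seen.

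**Figure D3:**
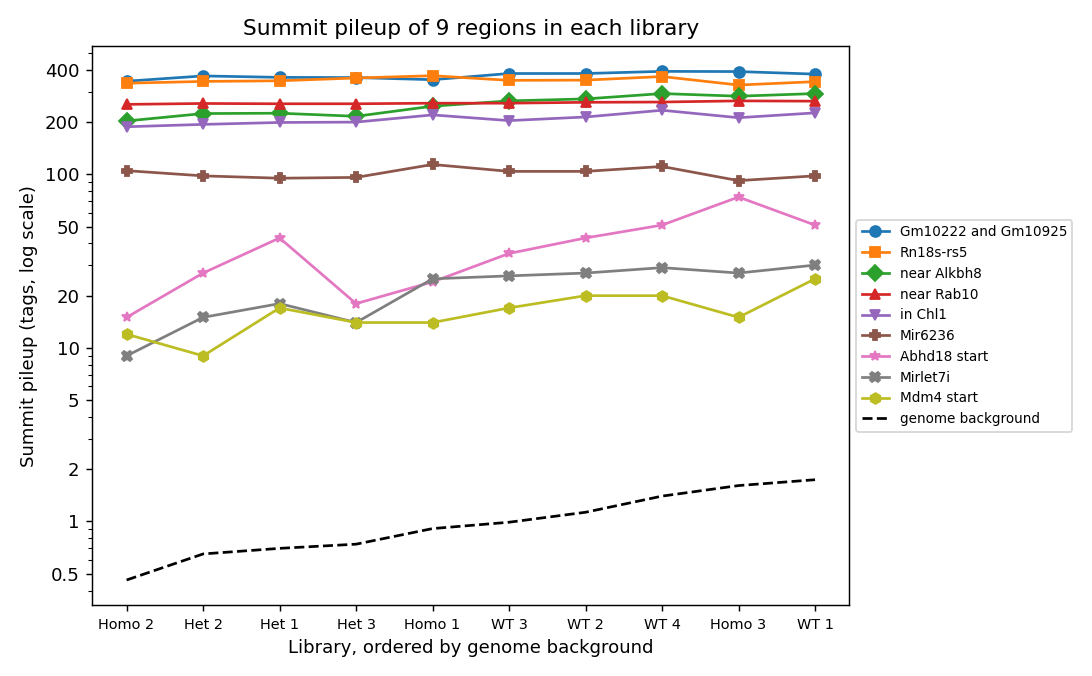
Summit pileup (y axis, tags, log scale) of 9 named regions in each library, ordered from left to right by genome background (dashed line). The regions at Gm10222, Rn18s-rs5, Rab10, Chl1 and Mir6236 stay nearly level, whereas Abhd18, Mirlet7i and Mdm4 are lower on the left, where background is low.

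Between the libraries with the highest and lowest background, pileup differed to different degrees in these kinds. Those libraries also differ in genotype, Cre and age, so depth as the cause was not tested. Between genes, the median pileup was 58.5 tags in Homo 3 (background 1.61) and 62.5 in WT 3 (0.99), against the order of background. WT 1 has 3.78 times the background of Homo 2, and between these libraries the pileup differed by a median of 2.64 times at gene-end regions and 2.55 times at the 31 listed starts. It differed 2.22 times at pseudogene ends, 1.99 times at noncoding genes, 1.79 times at members inside genes and 1.37 times at those between genes. By height, it differed 2.25 times at the 105 members with a median pileup of 30 tags or less and 1.12 times at the 56 members with a median pileup over 100 tags. No row of any list exceeded 395 tags, and the 2 mitochondrial rows of each library reached 366 to 395. How duplicate reads were treated is not given in the sources used here, and its part in these values was not tested. The ratio of the median pileup of members to that of gene-end regions was 2.64 in Homo 2, 1.62 in WT 1 and lowest, 1.30, in Homo 3.

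**Figure D4:**
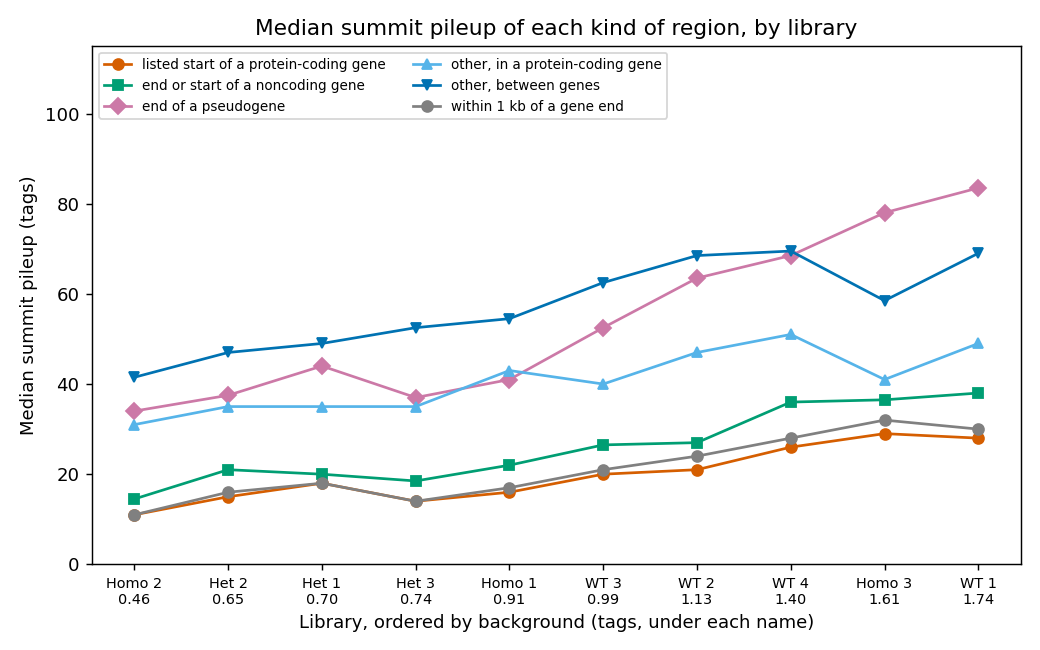
Median summit pileup (y axis, tags) of each kind of member and of gene-end regions, in the 10 libraries ordered by background (printed under each name). The line of listed starts follows the gene-end line from 11 tags in Homo 2 to 28 in WT 1, and the line of members between genes lies above it in every library, from 41.5 to 69 tags.

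The fold of members was also ranked alike across libraries. Over the 45 pairs of libraries, Spearman's rho of fold had a median of 0.942 over the 244 members (0.844 to 0.965) and 0.298 over the 403 gene-end regions (0.0870 to 0.583). It was higher for members in 45 of 45 pairs. The 31 listed starts had a median rho of 0.392. These are descriptions across regions, which are not independent replicates, and the wider spread of folds among members raises such a value. The spread of fold over libraries, as a coefficient of variation, was a median of 15.5% at listed starts, 10.9% at the 181 members with no landmark and 16.4% at gene-end regions.

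Whether Arid1a genotype moved these regions was tested on ranks. In each library the 647 regions were ranked by fold, the ranks were turned into normal scores and fitted with limma for 3 groups, and p-values were adjusted over all 647 by Benjamini-Hochberg. A rank percentile of 100 is the highest fold of the library. The median percentile of the 244 members was 66.5 in Homo 3 and 77.5 to 80.5 in the other libraries. Ranks thus did not make all libraries alike. Homo against WT called 0 of 244 members at an adjusted p below 0.05, where the background was 0 of 647 regions (0%). At an unadjusted p below 0.05 there were 8 members (3.28%), 4 higher and 4 lower in Homo, against 5.1% of all 647. Het against WT called 0 members as well, where the background was also 0%. At an unadjusted p below 0.05 there were 17 (6.97%), 10 higher and 7 lower in Het, against 5.72% of all. Homo against Het called 1 member, lower in Homo, which was the only call among the 647 (0.155%), and 10 members (4.1%) had an unadjusted p below 0.05, against 4.64% of all. The shares of members were near the background in all 3 comparisons.

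**Figure D5:**
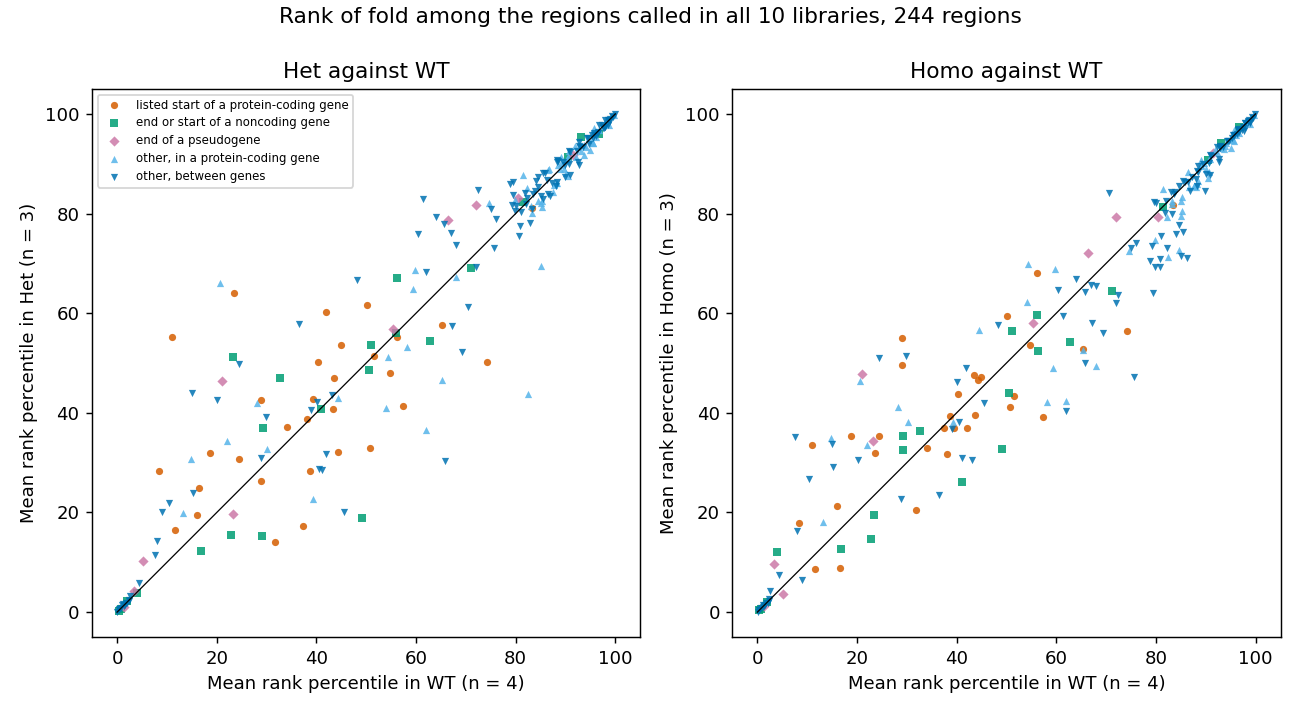
Mean rank percentile of fold of the 244 members in Het (left, n = 3) and Homo (right, n = 3) on the y axes, against that in WT (n = 4) on the x axes; the line marks equal ranks. Members at the top and bottom lie on the line, and those between 10 and 80, which include most listed starts, scatter around it on both sides.

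The difference in mean percentile between Homo and WT was within 10 points at 197 of 244, with a median of −0.103 points, and 112 members were higher and 130 lower. It was within 10 points at 204 of the 403 gene-end regions and at 21 of the 31 listed starts. Points near either end of the scale, where many members stand, leave less room to differ. Between Het and WT it was within 10 points at 195, with a median of 0.187. Between Homo and Het it was within 10 points at 191, with a median of −0.245. Comparisons with WT share its libraries. By kind, the median difference of Homo from WT was −0.477 at listed starts, −0.0322 at noncoding genes, −0.618 inside genes, −0.0837 between genes and 4.22 at the 10 pseudogene ends, 7 of which were higher in Homo, with none below an unadjusted p of 0.05.

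The called member was a narrow site between genes, chr10:72297159-72297443, 357403 bp from Zwint. Its rank percentile was 96.2, 97.1, 96.4 and 96.8 in WT, 97.9, 97.8 and 97.8 in Het and 95.9, 96.4 and 96.8 in Homo. Het stood above all other libraries by under 2 points. The means were 96.4 ± 0.464 in Homo and 97.8 ± 0.0892 in Het (SD, n = 3 each), a score difference of −0.22 (SE 0.04, adjusted p = 0.0364 in limma). Against WT the Het score was 0.18 higher (adjusted p = 0.116). With plain eBayes, without trend or robust fitting, its adjusted p was 0.748, and with ranks of summit pileup 0.995.

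The largest differences in rank lay in the middle of the range, and none passed the adjusted threshold. Between Het and WT, the start of Sys1, a Golgi protein gene, was at 27.0, 60.7 and 77.8 in Het and 9.8, 12.2, 3.3 and 18.6 in WT (adjusted p = 0.417). Homo lay between, at 38.6, 24.8 and 37.3. Het and WT did not overlap at Sys1. The members named here and in the next paragraph were picked for the largest differences, which favours groups that do not overlap. How often groups fail to overlap among all regions called everywhere was not counted, so such separation is a description only. The Cd47 start was at 75.4, 51.5 and 65.5 in Het, 19.6, 13.1, 18.8 and 42.6 in WT and 40.7, 48.1 and 7.2 in Homo (Het against WT, adjusted p = 0.687). Its Het libraries were above all the others.

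In the other direction, a region inside Ppp2r2b, a phosphatase subunit gene, was at 82.0, 82.8, 84.6 and 80.7 in WT and 9.8, 46.7 and 74.7 in Het (adjusted p = 0.417). All Het libraries were below WT, and they spread widely among themselves. Between Homo and WT the member nearest Tcte2 (chr17:13590303-13590748) differed most upward, at 33.2, 48.6 and 23.7 in Homo against 6.9, 7.3, 10.9 and 5.2 in WT (adjusted p = 0.594). Homo and WT did not overlap there, at a member picked for its large difference. The score difference of 1.05 by fold was 0.01 by ranks of summit pileup and 0.51 by ranks of −log10 p. Downward it was a region near Gm14496 (chr2:182012715-182013251), with 47.2 ± 38.4 in Homo and 75.6 ± 10.7 in WT (adjusted p = 0.893), where Homo 2 alone stood at 5.6.

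The steadiest members were at the ends of the scale, where neighbouring ranks are far apart in fold: those near Rab10 and in Chl1, first and second everywhere, and 3 of the chromosome 9 block, among them the lowest. The most variable were the Dido1 start, with percentiles from 5.2 in WT 2 to 79.2 in Het 3 (SD 27.3 over 10 libraries), a region near Mrto4, a region in Rbm47, 1 near Pkd2l1 and the region at Rnu3b2. Over kinds, the median SD of rank percentile was 17.1 at listed starts, 18.1 at gene-end regions and 2.46 at members with no landmark. At listed starts, differences between groups that were small against their spread were not detectable. The called member near Zwint had an SD of 0.715 over libraries, and its Homo mean minus its Het mean was −1.44 points.

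At the 1 kb limit the members just inside were the starts of Clip2, Taok2, Nup210, Cdc42bpb and Rps27l, 1071 to 1194 bp from the nearest gene end with median folds of 7.16 to 8.13. Just outside, at 802 to 991 bp, were regions near Gm10710, in Nudt9, near Hes1, near Cebpb and in Sspn, with folds of 5.56 to 28.7. The region in Sspn had 150 tags.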

How the data were processed

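Open chromatin was profiled in 10 liver tumour libraries. Reads were aligned to mm10 with Bowtie2, peaks called with MACS2 and deepTools used, per the submitters' processing notes. The sources used here state no version, threshold or duplicate setting. Each deposited list gives per peak a score, a fold (ratio of summit to local background, each plus 1), a −log10 p, a −log10 q and a summit offset, all the authors' own values. Peaks were called per library. Summit pileup and background were recovered as the whole number and Poisson mean that give the deposited fold and −log10 p within 0.001, for 99.88% to 99.97% of the rows of a list. The smallest background shared by 10 rows stands for depth, since read totals were not used here. For each region the row with the highest fold or pileup was used.

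Ranks of fold were tested with limma 3.58.1 (R 4.3.3, trend and robust). In simulated scores for Homo against WT, the test recovered 14.3% of regions shifted by 0.5 score units. It recovered 27.0% at a shift of 1 and 86.3% at a shift of 2, so smaller shifts were mostly missed. The shifted regions were drawn from all 647 regions called everywhere, so these shares do not describe the 244 members alone. Noise was drawn independently, with no shift common to a whole library such as that of Homo 3. Ratios of median pileup, added later, have no test. Named members had an adjusted p below 0.05, the 3 largest differences each way, the 10 highest or 5 lowest folds, the 3 widest, the 5 steadiest and 5 most variable ranks, a listed gene, or a noncoding gene end (10). A result under this rule is not reported here. Members and lists were chosen with earlier results of these data known. Planned motif counts need a genome, which was not used here. Motifs were read from RefSeq promoter windows instead.

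Same-numbered libraries did not deviate together (correlations −0.223 to 0.116), so no pairing by number was seen.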

Additional observations from a re-analysis of the deposited data

Results flagged for a closer look

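Of 50 named members tested for a library far from the others of its group, 5 had a WT library set apart in rank percentile. Chance gives about 1 in 20 for values without ties. That rate does not apply here, since ranks tie and members were named partly for extreme or steady ranks. Groups of 3 were not tested. Near Gm14496 (chr2:182012715-182013251), WT 3 was at 59.6 and the other WT libraries at 79.7 to 82.3. At the other 4 the gap was a few ranks or fewer, and the remaining WT libraries were tied. Near G6pd2, WT 2 was at 99.5 and the others at 99.6. At Rn18s-rs5 (chr17:39843044-39847320), WT 1 was at 0.541 and the others at 0.386. At chr9:3025506-3025981, WT 2 was at 0.541 and the others at 0.232. At chr14:19415698-19419497, WT 3 was at 2.86 and the others at 2.55.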

How the results depend on the processing

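The number of members was 244 and stayed within 1.5 times of it under every other setting tried, among them 264, 222 and 206 with gene ends at 500, 2500 and 5000 bp, 204 against all genes of the table, 178 with at least 50% of a region covered in each list, and 244 to 336 without each library in turn. Het against WT called 2 members when only those groups were fitted (near Zwint and in Il31ra). Homo against WT called 0 to 3 members when libraries were left out in turn, with 3 (in Il31ra, near Kpna1 and in Cdk5rap2) without Homo 3. Homo against Het called 3 with depth as a covariate (near Zwint, near Snx6 and at Mir6236). It called 0 by summit pileup, by −log10 p, by log2 fold over the median, without the very high sites, with the groups fitted alone and with plain eBayes, and 0 to 1 without each library in turn, with 1 only without Homo 3. With the replicate number as a block (replicates 1 to 3) all 3 comparisons called 0 members, and so did the same libraries without the block. For single members 283 of 297 alternatives kept direction and call, 13 lost the call near Zwint (adjusted p over its settings 0.00128 to 0.999), and 1 changed sign: Homo against WT near Sfi1, −0.0023 by summit pileup. Very high sites numbered 73 at 2 times the median of the 647 regions, 0 at 8 times, 63 by pileup and 4 to 6 without each library. The pileup ratio of members to gene-end regions, a choice made after seeing the data, was 1.76. It was 1.33 without the sites at 4 times the median pileup, 2.25 with gene ends at 5000 bp, 1.49 by fold and 1.73 to 1.79 without each library. Homo 2, with the lowest background (0.46), was the missing library at 92 of the 164 regions that missed 1. Het 3 (0.74) was missing at 33 and Het 2 (0.65) at 11, so these counts did not follow background in order. Whether depth set which regions were called was not tested.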
